A study of Homo sapiens with 9 samples.

Results

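Small nucleolar RNA host genes are transcribed and spliced like other RNA polymerase II genes, but the product kept in the nucleus is usually the small nucleolar RNA (snoRNA) trimmed out of an intron. The box C/D snoRNAs guide 2′-O-methylation and the H/ACA snoRNAs guide pseudouridylation of ribosomal RNA, and the small Cajal body RNAs do the same for spliceosomal RNAs. The spliced exons that remain carry little coding sequence, many are removed by nonsense-mediated decay during translation, and many of these genes begin with a 5′ terminal oligopyrimidine (TOP) stretch that they share with ribosomal protein genes. Their levels were described in an established human osteosarcoma line, U2OS, after knockdown of either of 2 subunits of the non-canonical NF-kB pathway: NFKB2, the p100 precursor of p52, or RELB, the partner of p52.

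The host genes were taken as every entry named SNHG with a number and nothing after it, plus GAS5, EPB41L4A-AS1 and ZFAS1. The rule gave 31 host genes of 44608 entries in each count table, and 27 of them passed a filter on low counts, as did 14815 genes in all. The cells had received siRNA to NFKB2 (siNFKB2), siRNA to RELB (siRELB) or a non-silencing siRNA (siNS), each at 75 nM by lipid transfection, and RNA was taken after 48 h. All groups, the siNS cells included, had thus been transfected, and no group was left untreated. There were 3 libraries per group and 9 in all, made from oligo-dT selected RNA. The study's title concerns homologous recombination genes under NFKB2 knockdown, and nothing in the labels says that replicates came from separate cultures, so each p-value rests on a spread among libraries that may be technical only. In bulk RNA of this kind fewer cells that express a gene and less RNA per cell cannot be told apart.

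Library totals lay between 15011789 and 19279572 counts. The targets were checked first. NFKB2 stood at 5.26, 22.9 and 48.4 CPM (a library's count scaled to its total) in siNFKB2 libraries 1 to 3, at 117, 169 and 168 CPM in siRELB libraries and at 80.7, 126 and 117 CPM in siNS libraries. RELB stood at 2.66, 4.66 and 5.36 CPM in siRELB libraries, at 21.1, 41.9 and 42.9 CPM in siNFKB2 libraries and at 17.1, 30.3 and 34.1 CPM in siNS libraries. Each target was lowest in every library of its own knockdown, and what was left of NFKB2 differed widely among the siNFKB2 libraries. The mesenchymal markers VIM and SPARC lay at 2140 CPM or above and 1194 CPM or above in every library, the bone factor RUNX2 at 4.0 to 13.9 CPM and the collagen gene COL1A2 at no more than 1.15 CPM. The epithelial markers EPCAM, CDH1 and KRT5 reached at most 2.73, 3.53 and 0.461 CPM, and of the blood markers CD3E had no count, PTPRC reached 0.473 CPM and HBB 6.92 CPM.

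The start sites of several host genes are printed because the terminal pyrimidine stretch is the feature the family is known for. Shown are the host genes that changed in a comparison below, except SNHG6, for which no start window was at hand. Printed beside them are SNHG16, SNHG5, SNHG12 and SNHG19. These last were not called in the main fits, and all have such a stretch near the start. Each line gives 30 bases of the coding strand from RefSeq (GRCh38.p14), with 10 bases before the annotated start and 20 from it on, and capitals mark the run of at least 5 C or T nearest to the start.
ZFAS1, chr20:49278632-49278661, plus strand: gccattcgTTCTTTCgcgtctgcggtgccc
SNHG16, chr17:76557754-76557783, plus strand: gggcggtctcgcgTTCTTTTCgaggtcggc
SNHG5, chr6:85678714-85678743, minus strand: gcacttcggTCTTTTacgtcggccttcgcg
SNHG12, chr1:28581854-28581883, minus strand: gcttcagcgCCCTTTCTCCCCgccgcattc
SNHG19, chr16:2155339-2155368, minus strand: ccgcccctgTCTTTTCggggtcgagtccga
SNHG29, chr17:16438977-16439006, plus strand: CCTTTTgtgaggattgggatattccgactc
SNHG14, chr15:24823598-24823627, plus strand: gTCCTCCTgcgccgacctcgaatgcggtcc
SNHG18, chr5:9546190-9546219, plus strand: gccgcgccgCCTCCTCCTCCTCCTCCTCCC
SNHG21, chr15:82750554-82750583, plus strand: cggaaagagagtggatttactaggaaggtg
SNHG22, chr18:49814013-49814042, plus strand: tccgctgggcagaggcttgggccgccgagc
In ZFAS1, SNHG5, SNHG12 and SNHG19 the run begins just before the annotated start, and in SNHG16 just after it. The SNHG29 run starts upstream of the window, so only its last part is seen, and SNHG21 and SNHG22 have no such run at this place. Nor do GAS5, EPB41L4A-AS1, SNHG10, SNHG20 and SNHG30 at the RefSeq starts used. These genes are not printed and were not called in the main fits. The printed lines thus do not show that called and uncalled host genes differ in it. The RefSeq starts of SNHG14 and GAS5 lie upstream of the spans that GENCODE 29 gives these genes. The windows of SNHG12, SNHG20, SNHG29 and ZFAS1 lie inside the GENCODE spans, downstream of their 5′ ends. A run that is present or missing here thus holds for the RefSeq start only.

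RefSeq promoter windows of 300 bases were at hand for 27 host genes. The letters CTTT, read on the coding strand within the first 10 bases from the start, were found in 7 of them (25.9%), against 4.54% of 35116 promoter windows. The 7 were the 5 printed above that hold CTTT there, ZFAS1, SNHG16, SNHG5, SNHG12 and SNHG19, and SNHG4 and SNHG32. A run of at least 5 pyrimidines near the start was present in 19 of the 27 windows (70.4%), against 42% of all windows. CACGTG, the E-box read by MYC and its relatives and the same on both strands, was present in SNHG7 and SNHG30 (7.41% of the host windows, against 7.26% of all windows). The NF-kB site, searched on both strands, was present in SNHG4 and SNHG29 (7.41%, against 5.91% of all windows). These are matches of letters and not measured binding.

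Together the host genes took 19438 to 24845 counts per library, which is 0.102% to 0.152% of the total. The 3 with the highest mean CPM, SNHG29, SNHG16 and ZFAS1, held 47.2% of the host gene CPM. A mean above 100 CPM was found for 4 host genes, 15 lay between 10 and 100 CPM, and 8 lay below 10 CPM. The 4 that did not pass the filter were SNHG28 with 5 counts over all 9 libraries, SNHG27 with 11, SNHG31 with 59, and SNHG32. SNHG32 and its snoRNA entries SNORD48 and SNORD52 were listed at 0 in every library. Whether that reflects the cells or the counting was not tested, and the counting annotation is not given in the sources used here. Compared per kilobase of annotated exon, SNHG19, host of SNORD60, had a mean level of 98.4 ± 54.0 CPM per kb (SD, n = 9 libraries). SNHG29 had 82.8 ± 14.8, SNHG6 65.4 ± 16.3, ZFAS1 51.9 ± 15.2 and SNHG8 46.5 ± 12.7 CPM per kb on the same scale. These neighbours overlap in their ranges over the libraries, SNHG19 running from 53.8 to 211 CPM per kb and SNHG29 from 63.3 to 109.6 CPM per kb. The lowest was SNHG14, with 0.496 ± 0.139 CPM per kb over an annotated exon length of 43324 bases.

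**Figure D1:**
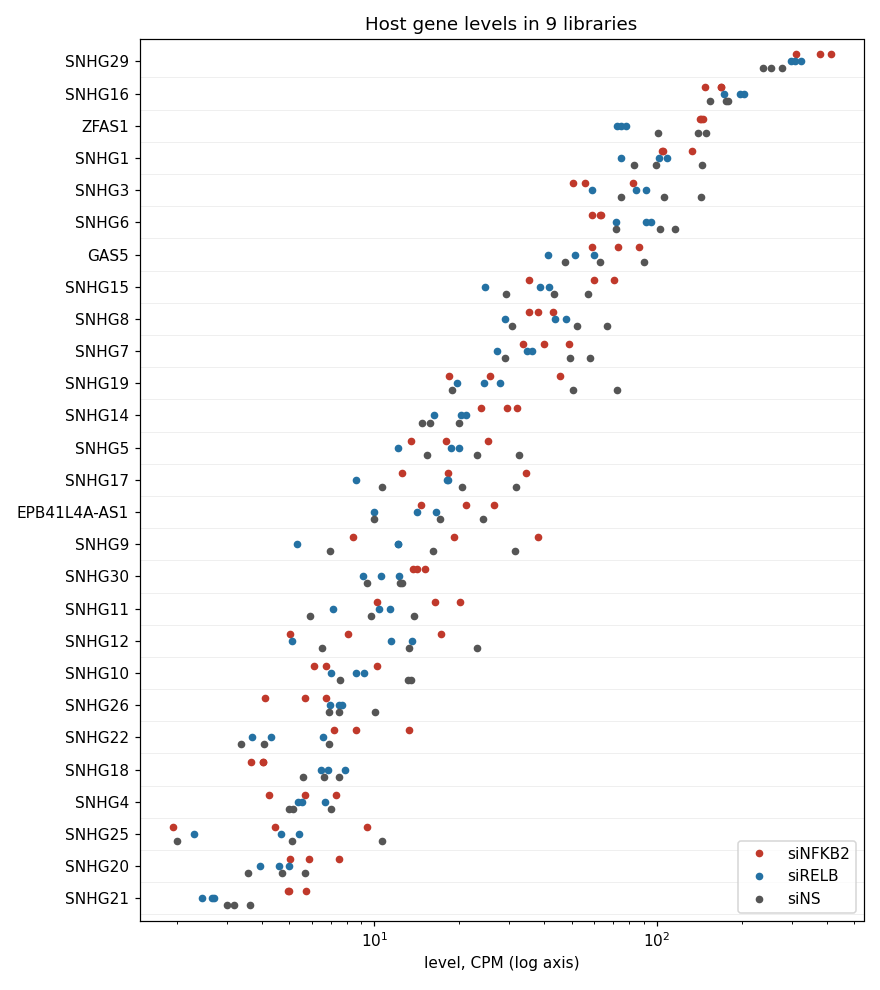
Level of each of the 27 host genes that passed the filter, in CPM on a log axis, with 1 point per library in siNFKB2 (red), siRELB (blue) and siNS (grey) cells. SNHG29 is at the top with a mean of 311 CPM over the 9 libraries and SNHG21 at the bottom with 3.71 CPM, and the siRELB points of ZFAS1 stand apart below the others.

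After NFKB2 knockdown 4 host genes rose and 2 fell relative to siNS, of 27 tested, where 12.6% of all genes tested were called higher and 13.5% lower at an adjusted p below 0.05. The 4 that rose were SNHG14, SNHG21, SNHG22 and SNHG29, and the 2 that fell were SNHG6 and SNHG18. As shares of the 27 these are 14.8% and 7.41%, near the background, and the median log2 fold change over the host genes was 0.05, against -0.00 over all genes.

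SNHG29 (also LRRC75A-AS1, chr17:16438822-16478678, plus strand in GENCODE 29) has the highest mean CPM of the family, not scaled by length, and hosts SNORD49A, SNORD49B and SNORD65. It stood at 412, 378 and 310.1 CPM in siNFKB2 libraries, against 254, 238 and 278 CPM in siNS libraries. All siNFKB2 libraries were above all siNS libraries, and the fold was 1.43 (log2 0.52, SE 0.12, adjusted p = 0.0117). Its siRELB libraries, at 323, 309 and 299 CPM, also lay above every siNS library, and that difference from siNS was not called (log2 0.27, adjusted p = 0.291).

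SNHG14 (chr15:24978583-25419462, plus strand) is the long imprinted transcript of the Prader-Willi and Angelman region that carries the SNORD116 and SNORD115 clusters and runs antisense to UBE3A. It stood at 32.0, 23.9 and 29.4 CPM in siNFKB2 libraries, against 19.9, 15.7 and 14.7 CPM in siNS libraries. The groups did not overlap, and the fold was 1.70 (log2 0.76, SE 0.17, adjusted p = 0.00931). Its siRELB libraries, at 20.3, 16.3 and 21.1 CPM, overlapped the siNS libraries.

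SNHG22 (chr18:49814023-49851059, plus strand), host of SCARNA17, stood at 13.3, 8.65 and 7.21 CPM in siNFKB2 libraries, against 6.89, 3.38 and 4.06 CPM in siNS libraries. Every siNFKB2 library was above every siNS library, though the lowest siNFKB2 and the highest siNS library lie close together. The fold was 2.03 (log2 1.02, SE 0.33, adjusted p = 0.0445). SNHG21 (chr15:82750564-82757206, plus strand), host of SCARNA15, stood at 5.74, 4.99 and 4.96 CPM in siNFKB2 libraries, against 3.63, 3.19 and 3.02 CPM in siNS libraries. The groups did not overlap and the fold was 1.59 (log2 0.67, SE 0.18, adjusted p = 0.0187). SNHG21 shares 72.9% of its exon length with AC105339.2 on its own strand, so reads of these genes cannot be assigned with certainty.

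SNHG6 (chr8:66921684-66926398, minus strand), host of SNORD87, stood at 58.8, 63.4 and 63.0 CPM in siNFKB2 libraries, against 71.8, 116 and 103 CPM in siNS libraries. All siNFKB2 libraries were below all siNS libraries, and the fold was 0.637 (log2 -0.65, SE 0.18, adjusted p = 0.0225). MCMDC2, whose exons overlap 29.3% of SNHG6 on the other strand, averaged 2.93 CPM in siNFKB2 and 5.11 CPM in siNS libraries (log2 -0.80, SE 0.29, adjusted p = 0.0649), and the strand setting of the counting is not given in the sources used here. SNHG18 (chr5:9546200-9550609, plus strand), host of SNORD123, stood at 4.03, 3.66 and 4.04 CPM in siNFKB2 libraries, against 5.57, 6.63 and 7.52 CPM in siNS libraries. The groups did not overlap and the fold was 0.595 (log2 -0.75, SE 0.18, adjusted p = 0.0116).

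Among the abundant host genes that were not called, SNHG3, host of the U17 snoRNAs SNORA73A and SNORA73B, came nearest. It stood at 55.7, 50.4 and 82.3 CPM in siNFKB2 libraries, against 74.5, 143 and 106 CPM in siNS libraries, and the groups overlapped (log2 -0.78, SE 0.26, adjusted p = 0.0532). SNHG16, host of SNORD1A to SNORD1C, stood at 168, 169 and 148 CPM in siNFKB2 libraries, against 155, 176 and 178 CPM in siNS libraries (log2 -0.07, SE 0.11). SNHG1, host of the SNORD22 and SNORD25 to SNORD31 group, stood at 104, 105 and 133 CPM in siNFKB2 libraries, against 83.0, 144 and 99.2 CPM in siNS libraries (log2 0.07, SE 0.21). Neither shows a difference beyond the spread of its libraries. GAS5, named for its accumulation in growth-arrested cells and host of 10 box C/D snoRNA entries, averaged 72.8 ± 13.9 CPM in siNFKB2 and 66.7 ± 21.7 CPM in siNS libraries (SD, n = 3 each), with a log2 fold change of 0.13.

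The remaining host genes were not called in this comparison. Positive log2 fold changes were fitted for SNHG11 (0.67), SNHG20 (0.39), SNHG15 (0.36), SNHG30 (0.33), EPB41L4A-AS1 (0.28), SNHG9 (0.26), ZFAS1 (0.14), SNHG17 (0.05) and SNHG4 (0.00). Negative ones were fitted for SNHG19 (-0.66), SNHG10 (-0.57), SNHG26 (-0.56), SNHG12 (-0.50), SNHG8 (-0.36), SNHG5 (-0.32), SNHG25 (-0.17) and SNHG7 (-0.16). All siNFKB2 libraries lay above all siNS libraries for 5 host genes and below them for 3, where 18.8% and 18.6% of all genes tested did so. SNHG26 and SNHG30 are the ones of these 8 that were not called.

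The count of host genes that fell depended on the libraries used. Without siNS library 1 there were 4 higher and 7 lower, without siNS library 2 there were 2 and 1, and without siNS library 3 there were 2 and 0. Without siNFKB2 library 1 there were 3 higher and 1 lower, and without siNFKB2 library 2 there were 3 and 0. Over all genes tested these fits called 4878, 3020, 2400, 4243 and 2259 in either direction, against 3869 in the main fit. The calls of SNHG14 and SNHG29 held with each library left out, while those of SNHG6, SNHG18, SNHG21 and SNHG22 were lost with 5, 2, 2 and 6 of the 9 libraries left out in turn, the highest adjusted p being 0.147 for SNHG22. In the fit of the 6 siNFKB2 and siNS libraries alone SNHG21 and SNHG22 were also not called (adjusted p = 0.0574 and 0.0653), and with no filter SNHG21 was not (adjusted p = 0.0792).

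**Figure D2:**
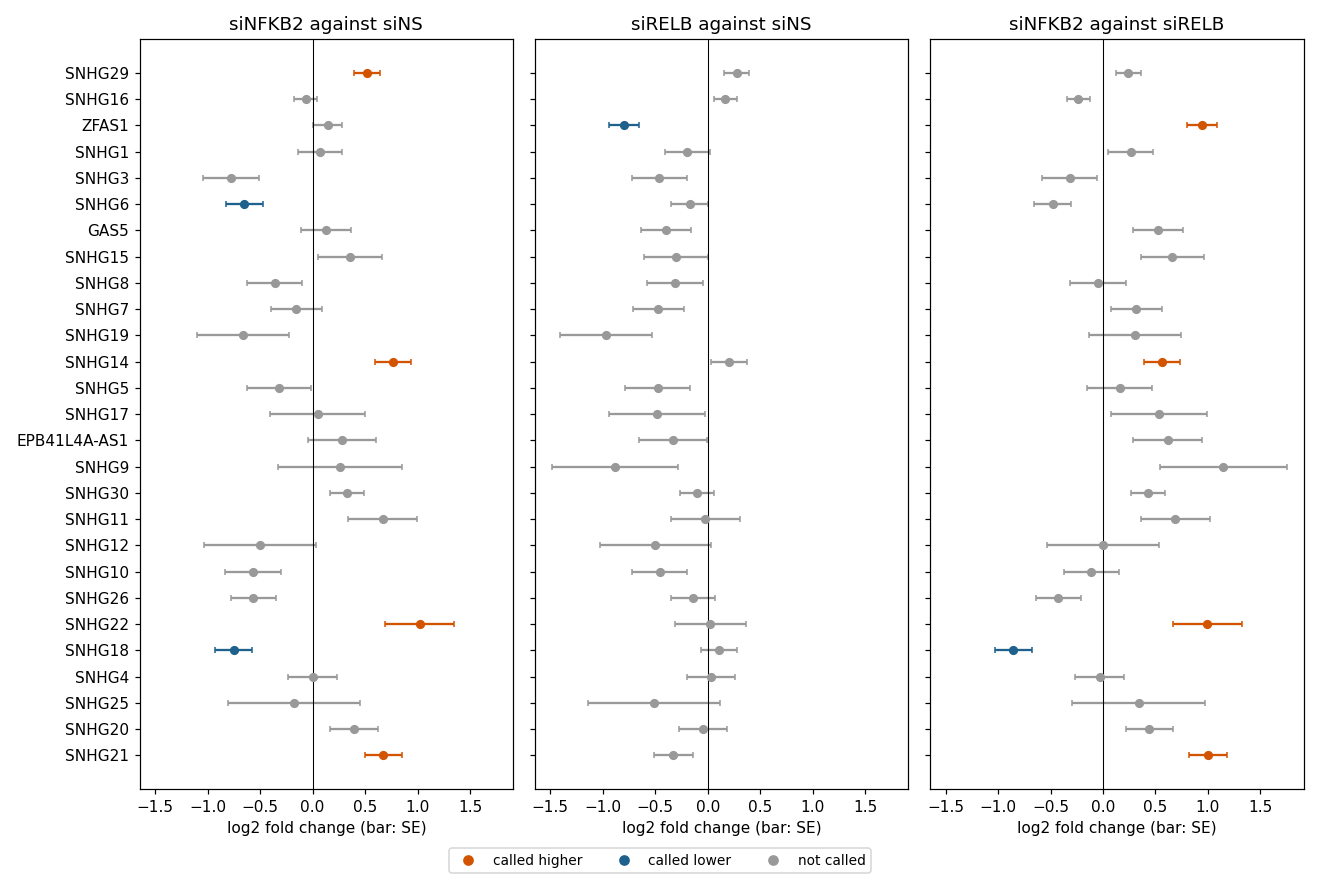
Log2 fold change of each host gene in the 3 comparisons, with the SE from the edgeR fit as a bar and orange or blue points for genes called higher or lower at an adjusted p below 0.05. In siNFKB2 against siNS 4 genes are orange and 2 blue, in siRELB against siNS ZFAS1 alone is blue, and in siNFKB2 against siRELB 4 are orange and 1 is blue.

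After RELB knockdown ZFAS1 was the 1 host gene that fell relative to siNS and 0 rose, by edgeR and by DESeq2 alike, where 0.810% of all genes tested were called lower and 1.21% higher. ZFAS1 (chr20:49278178-49295738, plus strand) starts head to head with ZNFX1 and hosts SNORD12, SNORD12B and SNORD12C. It stood at 77.7, 72.3 and 74.8 CPM in siRELB libraries, against 101, 149 and 140 CPM in siNS libraries, so the siRELB libraries were close together and all lay below the siNS libraries. The fold was 0.575 (log2 -0.80, SE 0.14, adjusted p = 0.0218). In siNFKB2 libraries ZFAS1 stood at 144, 142 and 146 CPM, within the siNS range. The adjusted p of ZFAS1 rose above 0.05 with 5 of the 9 libraries left out in turn: 0.0545, 0.134 and 0.126 without siRELB libraries 1, 2 and 3, and 0.0624 and 0.123 without siNS libraries 2 and 3. Its log2 fold change stayed between -0.70 and -0.82 in those 5 fits. The number of host genes called lower was 0 in each of those fits and 3 without siNS library 1. Without that library 1841 of all genes tested were called in either direction, against 299 in the main fit. In the fit of the 6 siRELB and siNS libraries alone the adjusted p of ZFAS1 was 0.0566.

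Of the 27 host genes 21 had a negative log2 fold change in siRELB against siNS, with a median of -0.31, beside 52.0% negative and a median of -0.02 over all genes tested. That median rests in part on single libraries: it was -0.06 without siNS library 2, -0.15 without siRELB library 1 and -0.52 without siNS library 1. At an unadjusted p below 0.05 there were 3 host genes: ZFAS1, SNHG29 and SNHG19. SNHG19 averaged 24.0 ± 4.14 CPM in siRELB and 47.2 ± 26.8 CPM in siNS libraries (SD, n = 3 each; log2 -0.97, SE 0.44, adjusted p = 0.297). SNHG9, host of SNORA78 and head to head with RPS2, had a log2 fold change of -0.88 with an SE of 0.60. GAS5 averaged 50.7 ± 9.29 CPM in siRELB libraries, against the siNS mean given above (log2 -0.39, SE 0.24, adjusted p = 0.439). The other abundant members overlapped siNS: SNHG16 stood at 173, 203 and 196 CPM, SNHG1 at 74.7, 102 and 109 CPM, SNHG3 at 59.0, 84.6 and 91.3 CPM and SNHG6 at 71.4, 95.0 and 91.6 CPM in siRELB libraries. All siRELB libraries lay above all siNS libraries for SNHG29 and below them for ZFAS1 and SNHG21, where 12.3% and 10.2% of all genes tested did so.

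In siNFKB2 against siRELB 4 host genes were higher and 1 was lower, where 12.2% of all genes tested were called higher and 14.3% lower. This comparison uses the same knockdown libraries as the comparisons with siNS, so its calls are not separate evidence. ZFAS1 was 1.92-fold higher in siNFKB2 than in siRELB libraries (log2 0.94, SE 0.14, adjusted p = 0.00122), and the groups, with values given above, lay far apart. SNHG21 stood at 2.66, 2.71 and 2.46 CPM in siRELB libraries and was 2.00-fold higher in siNFKB2 libraries (log2 1.00, SE 0.18, adjusted p = 0.00307). SNHG22 stood at 6.61, 3.69 and 4.32 CPM in siRELB libraries and was 1.99-fold higher in siNFKB2 libraries (log2 0.99, SE 0.33, adjusted p = 0.0477), and SNHG14 was 1.48-fold higher in siNFKB2 than in siRELB libraries (log2 0.56, SE 0.17, adjusted p = 0.0339). SNHG18 stood at 7.89, 6.89 and 6.46 CPM in siRELB libraries and was lower in siNFKB2 libraries (log2 -0.86, SE 0.18, adjusted p = 0.00617). For these 5 genes no library of one group reached the range of the other. All siNFKB2 libraries lay above all siRELB libraries for 6 host genes and below them for 4, where 22.3% and 23.6% of all genes tested did so.

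The check described under processing does not settle whether the replicate numbers mark pairs of siNFKB2 and siRELB libraries. With the replicate number as a block, 10 host genes were higher and 2 lower in siNFKB2 than in siRELB, beside 20.0% and 20.9% of all genes tested, and the 5 calls above were among the 12. The further calls were GAS5 (log2 0.54, adjusted p = 0.0377), EPB41L4A-AS1 (0.62, 0.0109), SNHG15 (0.64, 0.00195), SNHG9 (1.07, 0.0116), SNHG30 (0.43, 0.0352) and SNHG11 (0.68, 0.00676) on the higher side and SNHG6 (-0.46, 0.00725) on the lower. With the share of counts from the mitochondrial rRNA genes as a covariate in place of the block, none of these 6 was called higher: the log2 fold changes were 0.28 for GAS5, 0.16 for EPB41L4A-AS1, 0.21 for SNHG15, 0.06 for SNHG9, 0.35 for SNHG30 and 0.22 for SNHG11, with adjusted p from 0.119 to 0.839. SNHG6 stayed called lower in that fit (log2 -0.63, adjusted p = 0.00636). Without the block or the covariate, 2 host genes were called higher without siNFKB2 library 3, siRELB library 2 or siRELB library 3. The calls of SNHG14 and SNHG22 were lost with 5 and 6 of the 9 libraries left out in turn, with adjusted p up to 0.135 and 0.161, and 2 host genes were called lower without siNS library 1.

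**Figure D3:**
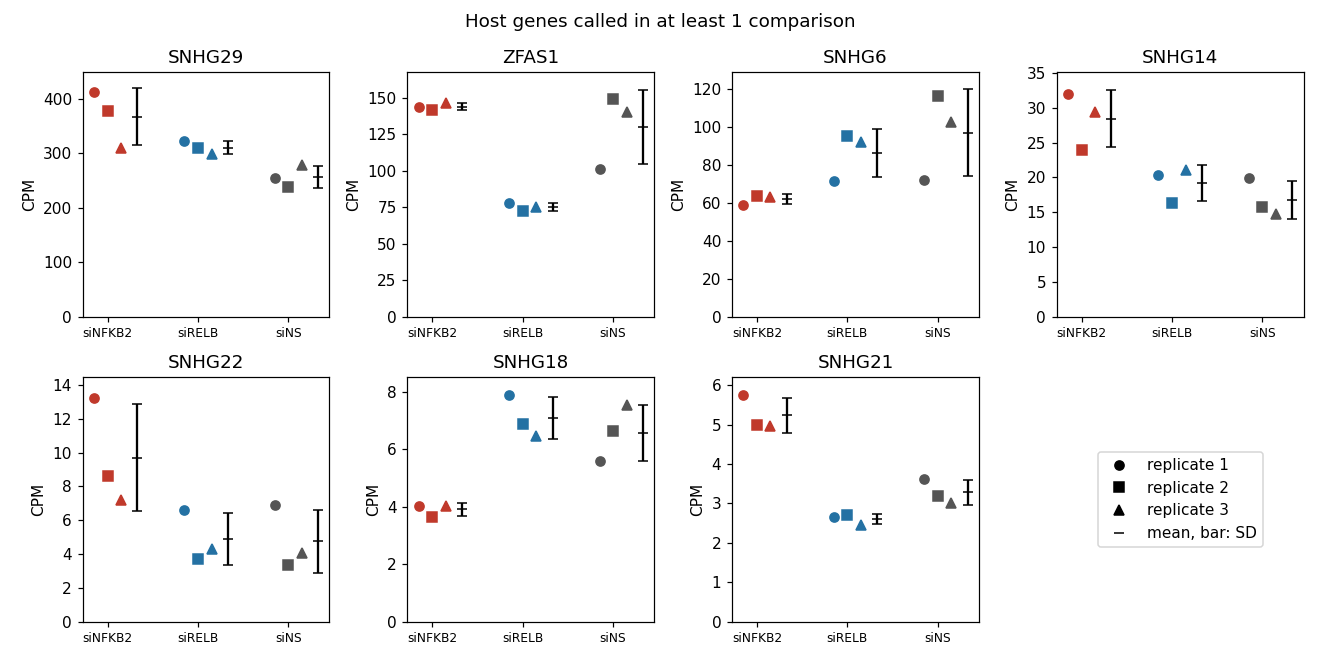
CPM in each library for the 7 host genes called in at least 1 comparison, with siNFKB2 left, siRELB in the middle and siNS right, the replicate number shown by the marker, and the mean with its SD beside the points. The siRELB points of ZFAS1 lie at 72.3 to 77.7 CPM, below all others, and the siNFKB2 points of SNHG18 lie at 3.66 to 4.04 CPM, below all others.

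Within each group many host genes were lowest in the same library. Library 1 was the lowest of the 3 for 15 host genes among siNFKB2 libraries, for 18 among siRELB libraries and for 22 among siNS libraries, of 27, while over all genes tested it was the lowest for 37.6%, 38.7% and 43.4%. SNHG9 had the widest range of the 27 as a ratio, with 8.37, 19.2 and 38.1 CPM in siNFKB2, 5.33, 12.1 and 12.1 CPM in siRELB and 6.99, 31.6 and 16.1 CPM in siNS libraries 1 to 3. SNHG9 thus varied 7.14-fold from its lowest to its highest library, SNHG25 5.53-fold and SNHG12 4.56-fold, whereas SNHG16 varied 1.37-fold. SNHG9, SNHG12, SNHG16 and SNHG25 were chosen here after their values were seen.

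The share of counts from the mitochondrial rRNA genes moved in the same way over these libraries. It was 0.519%, 1.01% and 2.68% in siNFKB2, 0.379%, 0.653% and 0.856% in siRELB and 0.406%, 1.33% and 0.630% in siNS libraries 1 to 3. The 3 libraries of every group stood in the same order by this share and by level for 6 of the 27 host genes, SNHG1, SNHG5, SNHG12, SNHG15, SNHG17 and SNHG25, where 5.38% of all genes tested did so. SNHG22 and SNHG29 were highest in library 1 of both knockdown groups, where the share was lowest. With this share as a covariate 4 host genes were higher and 11 lower in siNFKB2 than in siNS, beside 20.1% and 20.3% of all genes tested, and all 6 calls above were among them. The 9 further lower calls included SNHG12 (log2 -1.14), SNHG19 (-1.07), SNHG3 (-1.01) and SNHG25 (-0.94). SNHG17 was among the 9, with a log2 fold change of -0.46 (adjusted p = 0.0469), against 0.05 without the covariate. In siNFKB2 against siRELB the same covariate gave 5 higher and 6 lower (17.5% and 18.1% of all genes), and in siRELB against siNS ZFAS1 stayed the single call (log2 -0.77, adjusted p = 0.00377), where 3.80% of all genes were lower. With the 3 libraries numbered 1 left out, 6 host genes were higher and 7 lower in siNFKB2 than in siNS (21.7% and 23.3% of all genes). In the same fit 0 were higher and 4 lower in siRELB than in siNS (11.0% and 11.9% of all genes): ZFAS1 (-0.98), SNHG19 (-1.23), SNHG7 (-0.60) and SNHG10 (-0.58). What the mitochondrial share stands for in these libraries was not tested.

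**Figure D4:**
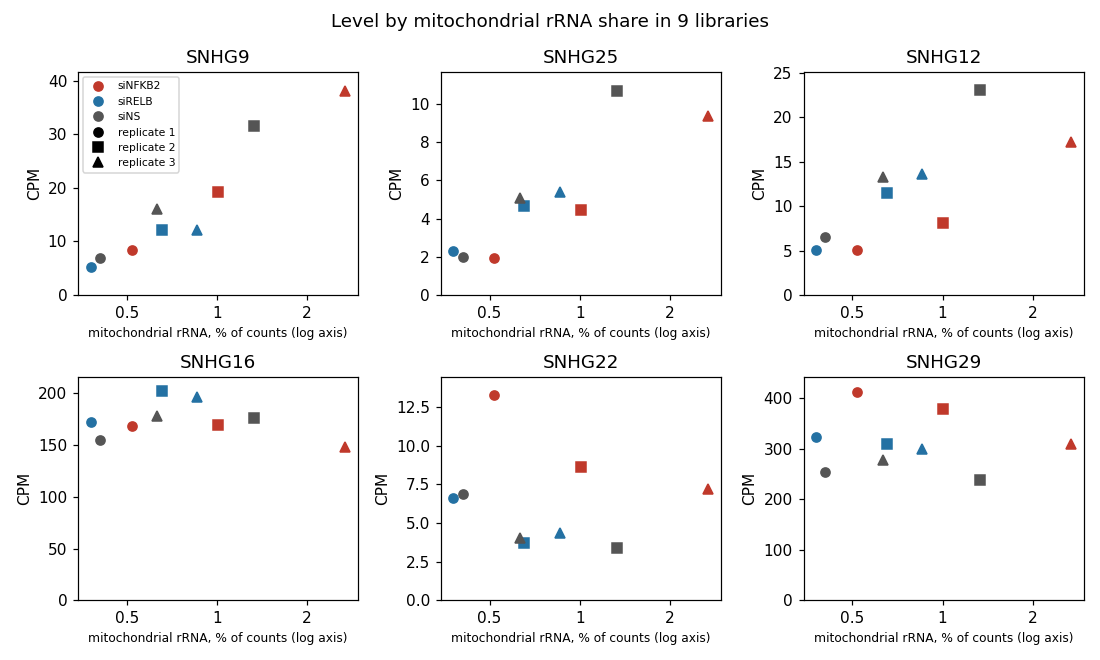
CPM of 6 host genes against the mitochondrial rRNA share of each library, in percent on a log axis, with colour for the group and marker for the replicate number. SNHG9, SNHG25 and SNHG12 lie low in the 3 libraries with the smallest shares and reach 38.1, 10.7 and 23.0 CPM at larger shares, SNHG16 stays between 148 and 203 CPM, and SNHG22 and SNHG29 are lower at larger shares within siNFKB2 libraries.

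The snoRNAs themselves are short and lack a poly(A) tail, so oligo-dT libraries catch few of them and their entries describe what little was caught. The RefSeq table, which lists no strand, placed 146 snoRNA entries of the count tables inside 29 of the host genes, 83 of them in SNHG14. Outside SNHG14 there were 38 box C/D, 21 H/ACA and 4 Cajal body RNA entries. Of the 146 entries 29 passed the filter. GAS5 entries held 3965 counts over the 9 libraries, 1449 of them from SNORD80, and SNHG1 entries held 2148, while the 83 entries of SNHG14 held 100 counts and none of them passed.

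Relative to siNS, 1 of the 29 snoRNA entries rose after NFKB2 knockdown and 0 were called by edgeR after RELB knockdown, with 6 and 2 at an unadjusted p below 0.05, where 12.6% and 1.21% of all genes tested were called higher and 13.5% and 0.810% lower. SNORD12B of ZFAS1 had 11, 13 and 12 counts in siNFKB2 libraries, 5, 5 and 6 in siRELB libraries and 6, 6 and 5 in siNS libraries. The siNFKB2 libraries lay above both other groups (log2 1.13, SE 0.35, adjusted p = 0.0386 against siNS, and log2 1.30, SE 0.36, adjusted p = 0.0226 against siRELB), and these calls were lost with 8 and 5 of the 9 libraries left out in turn. SCARNA16 of SNHG20 had 6, 22 and 36 counts in siNFKB2, 2, 3 and 1 in siRELB and 2, 13 and 6 in siNS libraries, and was called higher in siNFKB2 than in siRELB (log2 3.53, SE 0.90, adjusted p = 0.0163), a call lost without siNFKB2 library 3, siRELB library 1 or siRELB library 3. A negative log2 fold change was fitted for 26 of the 29 entries in siNFKB2 against siNS, with a median of -0.47, and for 24 in siRELB against siNS, with a median of -0.34, where 50.3% and 52.0% of all genes tested had a negative one. SNORD80 had 162, 119 and 122 counts in siNFKB2 and 197, 176 and 210 in siNS libraries, a difference that was not called (log2 -0.47, adjusted p = 0.0812). SNORD80 was chosen after its values were seen.

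Some host genes share a promoter region with a protein-coding gene that starts within 1000 bases on the other strand. Such a partner was tested for 7 of them. ZBTB37, a zinc finger gene next to GAS5, rose in siNFKB2 libraries to 25.3, 18.9 and 22.8 CPM, against 17.1, 10.6 and 13.2 CPM in siNS libraries (log2 0.71, SE 0.19, adjusted p = 0.0215), where GAS5 was not called. The call of ZBTB37 was lost with 4 of the 9 libraries left out in turn (adjusted p up to 0.0805). ZNFX1, the partner of ZFAS1, stood at 159.9, 156 and 169 CPM in siRELB libraries, against 151, 128 and 129.6 CPM in siNS libraries (log2 0.25, SE 0.11, adjusted p = 0.269). All siRELB libraries of ZNFX1 thus lay above its siNS libraries, while those of ZFAS1 lay below, though ZNFX1 was not called. RPS2, a ribosomal protein gene next to SNHG9, averaged 229 CPM in siRELB and 381 CPM in siNS libraries and was not called (log2 -0.74, SE 0.17, adjusted p = 0.0622). SEMA5A next to SNHG18, SLC3A2 next to SNHG1, TRAF7 next to SNHG19 and ACAA2 next to SNHG22 were not called in any of the 3 comparisons. The partners were looked up by distance after the values of the host genes were known.

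The genes that make, use or degrade these transcripts are given as lists, with the percent of all genes tested called as above. Of 18 snoRNP protein and assembly genes tested, 1 rose and 3 fell in siNFKB2 against siNS. The 3 were NOLC1, a nucleolar chaperone of snoRNPs (log2 -0.94, SE 0.21, adjusted p = 0.00808), RUVBL1, an ATPase of the assembly complex (log2 -0.87, SE 0.17, adjusted p = 0.00431), and NUFIP1, an assembly factor (log2 -0.50, SE 0.14, adjusted p = 0.0232). ZNHIT6, another assembly factor, rose (log2 0.55, SE 0.15, adjusted p = 0.0243). The calls of NOLC1 and RUVBL1 held with each library left out, and those of NUFIP1 and ZNHIT6 were each lost with 4 of the 9 left out in turn. In siRELB against siNS edgeR and DESeq2 called 0 genes of this list, with 4 at an unadjusted p below 0.05. Of the list 4 were lower without siNS library 1, 4 with the replicate block and 6 without the libraries numbered 1. Calls rose over all genes tested too: these fits called 1841, 1570 and 3402 in either direction, against 299 in the main fit. Without the libraries numbered 1, 11.9% of all genes tested were lower. In siNFKB2 against siRELB 2 genes of the list were higher, SNU13 and DKC1, and 2 lower, NOLC1 and NUFIP1. In this comparison the call of NOLC1 held with each library left out. Those of SNU13 and DKC1 were each lost with 5 of the 9 left out in turn, and that of NUFIP1 with 1. The counts ranged over 0 to 5 higher and 1 to 3 lower in those fits.

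Of 20 genes of nonsense-mediated decay and the exon junction complex, 2 rose and 0 fell in siNFKB2 against siNS by edgeR, with 6 at an unadjusted p below 0.05 in either direction. The 2 were PNRC2, a decapping adaptor (log2 1.15, SE 0.13, adjusted p = 0.00041), and GSPT1, the release factor eRF3a (log2 0.40, SE 0.11, adjusted p = 0.0249, lost with 3 of the 9 libraries left out in turn). In siRELB against siNS UPF2, a core decay factor, averaged 68.9 CPM in siRELB and 113 CPM in siNS libraries and fell (log2 -0.72, SE 0.13, adjusted p = 0.0221). The call of UPF2 was lost without siNS library 2 or 3, siRELB library 2 or 3, or siNFKB2 library 2, with adjusted p up to 0.126. Without siNS library 1, 3 genes of the list were lower, where 1841 of all genes tested were called in either direction. In siNFKB2 against siRELB 6 were higher and 1 lower, where 12.2% and 14.3% of all genes tested were. First by adjusted p were PNRC2, UPF2, ETF1 and NBAS. With 1 library left out these counts ranged over 2 to 6 higher and 0 to 2 lower. In this comparison the calls of PNRC2 and UPF2 held with each library left out. Those of ETF1 and NBAS were lost with 3 and 4 of the 9 left out in turn. Of 10 transcripts known as substrates of this decay, UPP1 (log2 0.79, SE 0.13, adjusted p = 0.00189) and GADD45A (log2 1.18, SE 0.23, adjusted p = 0.0044) rose in siNFKB2 against siNS, and edgeR and DESeq2 called 0 in siRELB against siNS, with 0 at an unadjusted p below 0.05.

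Of 25 protein-coding hosts of snoRNAs, WDR43 rose and CWF19L1 and NCL fell in siNFKB2 against siNS, with log2 fold changes of 0.47, -0.64 and -0.60. Of 21 translation factor and other TOP mRNAs, 0 rose and 4 fell, which are the 4 with an unadjusted p below 0.05: NAP1L1 (-0.83), HNRNPA1 (-0.85), NPM1 (-0.65) and EEF1G (-0.41). Of 21 genes of RNA polymerase I and rRNA processing, 2 rose and 4 fell, with TAF1A (0.62) and POLR1B (0.43) rising and NPM1 and PES1 (-0.40) first among those that fell. Their medians in siNFKB2 against siNS were 0.03, 0.03 and -0.12, beside -0.00 over all genes. In siRELB against siNS edgeR called 0 genes in each of these 3 lists, with 1, 5 and 2 genes at an unadjusted p below 0.05, and DESeq2 called 0, 1 and 1 lower. With 1 library left out, the genes of RNA polymerase I and rRNA processing called in siNFKB2 against siNS ranged over 1 to 4 higher and 0 to 5 lower, the TOP mRNAs over 2 to 5 lower, and the protein-coding hosts over 0 to 2 higher and 1 to 3 lower. No gene of RNA polymerase I and rRNA processing was called lower without siNS library 3, siNFKB2 library 2 or siNFKB2 library 3. CWF19L1, NAP1L1, HNRNPA1 and TAF1A were called with each library left out, while WDR43, NCL, NPM1, EEF1G, POLR1B and PES1 were not. In siRELB against siNS, without siNS library 1, 3 TOP mRNAs, 2 genes of RNA polymerase I and rRNA processing and 2 substrates of nonsense-mediated decay were lower. That fit called 1841 of all genes tested in either direction, against 299 in the main fit.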

How the data were processed

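Each of the 9 libraries of oligo-dT selected RNA came with a table of raw read counts per gene symbol. The authors' deposited counts were made with Trimmomatic 0.38, STAR 2.7.1a and Subread 1.6.4 on GRCh38.p13, per the submitters' processing notes; annotation and strand setting: not given in the sources used here. The members and gene lists were chosen with earlier results of these data known. Entries that carry a suffix for a further placement (5005, at most 0.0369% of a library's counts) were not added to the plain symbol.

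Counts were filtered with filterByExpr, scaled by TMM and fitted on all 9 libraries with 3 group means by the quasi-likelihood F test of edgeR 4.0.16 in R 4.3.3, with Benjamini-Hochberg adjustment over 14815 genes, called below 0.05. CPM values use the TMM factors and the SE is the absolute log2 fold change over the square root of F. The procedure was tested on simulated data. Those data had independent libraries and the same dispersion for all genes, so they do not cover deviations shared between libraries. Values were given in every library for host genes called in any comparison and for the 6 of highest mean CPM, and in each list up to 4 called genes of smallest adjusted p were named. Gene positions, exon lengths and overlaps are from GENCODE 29 (GRCh38), which may differ from the authors' annotation. snoRNAs were placed inside hosts, and start windows taken, from RefSeq tables (GRCh38.p14). Capitals in the windows mark runs of at least 5 pyrimidines that reach within 5 bases before or 10 after the start.

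Replicate numbers come from the labels, which do not say that a number marks a shared day or culture. Deviations from the group means of same-numbered siNFKB2 and siRELB libraries correlated at 0.535, 0.171 and 0.450 over all genes, and the block is given beside that comparison. The differently numbered siNFKB2 library 3 and siRELB library 2 correlated at 0.258, so these values do not establish pairs. No pair of replicates was alike within sampling noise (chi-square per degree of freedom 3.13 to 75.8). The alternatives were DESeq2 1.42.0 (Wald test, or its size factors in edgeR), no filter, a minimum mean of 5 CPM, only the 6 libraries compared, the replicate block, the mitochondrial rRNA covariate, suffixed entries summed, each library left out, and the libraries numbered 1 left out.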

Additional observations from a re-analysis of the deposited data

How the results depend on the processing

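Of the host genes called in a comparison, none changed sign in that comparison under any alternative run. With the mitochondrial rRNA covariate 3 that had not been called changed sign and were called lower: SNHG17 in siNFKB2 against siNS (-0.46), and SNHG12 (-0.91) and SNHG25 (-0.83) in siNFKB2 against siRELB. A further 66 sign changes were called in neither fit. The median log2 fold changes over the host genes moved by less than the spread of single-library medians within groups, which is wide (SD 0.356). That SD exceeds the size of each median itself, so it cannot show that the medians are stable. Over all alternatives they lay between -0.13 and 0.33 for siNFKB2 against siNS, changing sign, between -0.52 and -0.06 for siRELB against siNS, and between 0.01 (mitochondrial rRNA covariate) and 0.46 for siNFKB2 against siRELB, where the median was 0.32 without the covariate. Counts of calls moved more, and the cause was not tested. With the DESeq2 Wald test 879 genes were called in siRELB against siNS (299 in edgeR) and 2 host genes were lower in siNFKB2 than in siRELB, as also with no filter. With only the 6 libraries compared, 2 host genes were higher in siNFKB2 than in siNS, 0 were lower in siRELB than in siNS, where 116 genes were called in all, and 2 were lower in siNFKB2 than in siRELB.

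In siNFKB2 against siNS and siRELB against siNS, deviations of same-numbered libraries correlated at 0.585, 0.0545 and 0.0914 and at 0.594, 0.376 and 0.0439. The libraries numbered 1 were the most alike in both. The differently numbered siNFKB2 library 3 and siNS library 2 correlated at 0.569, and siRELB library 3 and siNS library 2 at 0.426. These values thus do not establish pairs either. With the replicate block 5 host genes were lower in siNFKB2 than in siNS, with 5944, 1570 and 6054 genes called in siNFKB2 against siNS, siRELB against siNS and siNFKB2 against siRELB, and 10 host genes higher and 2 lower in the last. The mitochondrial rRNA covariate gave 11 lower host genes and 5988 genes called in siNFKB2 against siNS, 1326 genes called in siRELB against siNS and 6 lower host genes in siNFKB2 against siRELB. Without the libraries numbered 1, 7 host genes were lower and 6672 genes called in siNFKB2 against siNS, 4 lower and 3402 called in siRELB against siNS, and 9 higher, 3 lower and 6548 called in siNFKB2 against siRELB.

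With 1 library left out, host genes called higher and lower ranged over 2 to 4 and 0 to 7 in siNFKB2 against siNS, 0 to 0 and 0 to 3 in siRELB against siNS, and 2 to 5 and 1 to 2 in siNFKB2 against siRELB, and all genes called over 2259 to 4878, 15 to 1841 and 2209 to 4886. At the depth of these libraries the host genes under 10 CPM rest on few counts, and a difference that was not called is not shown to be absent.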
